A study of Mus musculus with 7 samples.

Results

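The genes described here encode the enzymes with which the colon epithelium makes reactive oxygen and nitrogen species. They are Duox2 and Duoxa2 (a dual oxidase and its maturation factor), Nox1, Noxo1 and Noxa1 (an NADPH oxidase, its organizer and its activator) and Nos2 (inducible nitric oxide synthase). They were chosen by function as 6 genes of the 18036 that had a read in at least 1 library, and found by mouse gene ID. All 6 also passed the filter on low values that left 12061 genes for testing, which kept genes with at least 1 RPKM (reads scaled to gene length and library depth) in at least 2 libraries.

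RNA-seq was done on colon epithelium scraped off the muscle layer of 6-week-old female hCYP1A mice on a C57BL/6 background, a humanized CYP1A line that all groups shared. PhIP/DSS mice received PhIP, a heterocyclic amine carcinogen of cooked meat, as 2 doses of 100 mg/kg given 4 days apart, and a week later 1.5% dextran sulfate sodium (DSS, a polymer that damages the colon lining and causes colitis) in drinking water for 5 days. DSS mice received the same DSS course alone, and control mice received neither agent. Collection was 1, 3 or 7 days after the DSS course, and each of the 7 libraries was a single pool of equal RNA amounts from 3 mice. The submitters graded the tissue as colitis on days 1 and 3 and as partial colitis on day 7 in both treated arms, and as normal in the control. Days here are those of the sample labels; names given to the deposited tables instead number the treated days 3, 7 and 17 and the control 7, and no source used here says from when. No library held PhIP without DSS.

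DUOX2 and NOX1 are membrane oxidases that pass electrons from NADPH to oxygen. DUOX2 releases hydrogen peroxide at the apical surface of the gut epithelium and leaves the endoplasmic reticulum only with DUOXA2, whereas NOX1 makes superoxide and depends on NOXO1, NOXA1, p22phox and RAC1. NOS2 makes nitric oxide from arginine and is known for its induction by inflammatory cytokines, in epithelium as well as in macrophages and other leukocytes.

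Duox2 and Duoxa2 are shown first because they lie head to head on chromosome 2 and gave the lowest p-values of the 6 genes against the control on each day. In the mouse build GRCm38.p6, the RefSeq gene span of Duox2 runs from 122279246 to 122298740 on the minus strand and that of Duoxa2 from 122298900 to 122302885 on the plus strand, with 159 bases between them. The RefSeq promoter table, which holds 250 bases before and 50 bases after a gene's start, had a window for 5 of the 6 genes. The windows of the Duox2 and Duoxa2 pair are chr2:122298178-122298477 (minus strand) and chr2:122298650-122298949 (plus strand), with 172 bases between them and 673 bases between the start sites the table uses. Capitals mark a TATAAA match.
Duox2: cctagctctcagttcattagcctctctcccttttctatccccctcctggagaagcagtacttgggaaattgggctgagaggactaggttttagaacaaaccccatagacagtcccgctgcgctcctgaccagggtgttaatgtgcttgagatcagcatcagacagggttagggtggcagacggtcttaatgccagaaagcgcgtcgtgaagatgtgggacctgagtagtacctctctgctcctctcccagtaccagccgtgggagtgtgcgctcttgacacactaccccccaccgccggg
Duoxa2: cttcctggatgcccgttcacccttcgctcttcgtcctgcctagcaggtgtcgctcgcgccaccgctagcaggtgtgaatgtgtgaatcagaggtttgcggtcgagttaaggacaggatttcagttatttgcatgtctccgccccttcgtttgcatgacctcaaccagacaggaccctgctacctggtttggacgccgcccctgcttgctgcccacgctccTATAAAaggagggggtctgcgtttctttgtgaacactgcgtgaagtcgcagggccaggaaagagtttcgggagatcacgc
The TATAAA match in the Duoxa2 window began 30 bases before the start site, and the Duox2 window held none. The Duox2 window lies inside the Duox2 gene span and stops short of the upstream end of that span, 122298740. Of 32851 mouse promoter windows of the same length, 13.6% held TATAAA on either strand.

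The windows of Nox1, chrX:134111805-134112104, and Noxa1, chr2:25095156-25095455, both on the minus strand, are shown because each held a match to the NF-kB motif, marked in capitals.
Nox1: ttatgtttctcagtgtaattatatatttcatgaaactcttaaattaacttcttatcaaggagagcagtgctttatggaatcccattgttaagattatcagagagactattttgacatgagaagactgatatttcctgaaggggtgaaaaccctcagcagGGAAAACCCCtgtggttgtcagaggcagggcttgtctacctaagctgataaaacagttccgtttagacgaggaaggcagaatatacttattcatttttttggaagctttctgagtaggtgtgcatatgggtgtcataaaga
Noxa1: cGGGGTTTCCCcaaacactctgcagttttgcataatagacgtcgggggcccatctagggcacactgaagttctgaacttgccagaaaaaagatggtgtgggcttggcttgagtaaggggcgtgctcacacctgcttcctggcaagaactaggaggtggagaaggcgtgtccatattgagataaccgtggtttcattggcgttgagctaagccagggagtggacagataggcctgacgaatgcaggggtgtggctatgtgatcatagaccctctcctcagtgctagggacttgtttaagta
The match began 91 bases before the Nox1 start site and 249 bases before the Noxa1 start site, and 8.46% of all windows held the motif on either strand. The Nox1 window lies inside the Nox1 gene span, far from the upstream end of that span, 134137711. Sequence before that end was not searched. Neither the GAS motif (TTCNNNGAA, in 8.3% of all windows, both strands) nor the ISRE motif (in 3.44%) was found in the 5 windows. No window held more than 1 match, so no matches overlapped. Noxo1 lies on chromosome 17 from 24696234 to 24700530, Nox1 on chromosome X from 134086421 to 134137711, Noxa1 on chromosome 2 from 25085667 to 25095205 and Nos2 on chromosome 11 from 78920787 to 78960226. Nox1 overlaps Cstf2 by 402 bases and Noxa1 overlaps Entpd8 by 53 bases, and whether reads were counted by strand is not stated in the sources, so reads in those stretches are uncertain.

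On the genes tested, the PhIP/DSS libraries held 8370651 to 8505920 uniquely mapped reads, the DSS libraries 8230188 to 8755293 and the control library 7634230. With 1 library per condition, the intervals below are exact 95% Poisson or conditional binomial intervals that cover counting error only, and not the spread between mice. Scraped epithelium also holds other cells. The 10 epithelial markers (Epcam, Cdh1, keratins and others) summed to 9387 to 10730 RPKM in PhIP/DSS, 9320 to 11030 RPKM in DSS and 8716 RPKM in the control, with none at 0 reads. The neutrophil markers, of which 9 of 10 were listed, summed to 825, 32.3 and 72.3 RPKM in PhIP/DSS on days 1, 3 and 7, to 36.5, 1169 and 476 RPKM in DSS, and to 2.99 RPKM in the control, where Clec4e, Retnlg and Mmp8 were at 0 reads. The 12 macrophage and monocyte markers summed to 526, 107 and 199 RPKM in PhIP/DSS, to 115, 301 and 260 RPKM in DSS and to 53.1 RPKM in the control, with none at 0. The 6 fibroblast markers summed to 152, 31.8 and 59.99 RPKM in PhIP/DSS, to 33.7, 78.0 and 79.2 RPKM in DSS and to 6.66 RPKM in the control, with none at 0. PhIP/DSS day 1, DSS day 3 and DSS day 7 were therefore the libraries richest in neutrophil markers.

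All 6 genes stood above the control in each of the 6 treated libraries, a pattern shared by 25.4% of the genes tested. Duox2, Duoxa2 and Nos2 were at least 2-fold above the control in each treated library, as were 3.32% of the genes tested. Nox1 was intermediate, and the ratios of Noxo1 and Noxa1 stayed under 2-fold throughout. The counting intervals of Noxa1 reached above 2 in DSS days 1 and 3 and in PhIP/DSS day 3.

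**Figure D1:**
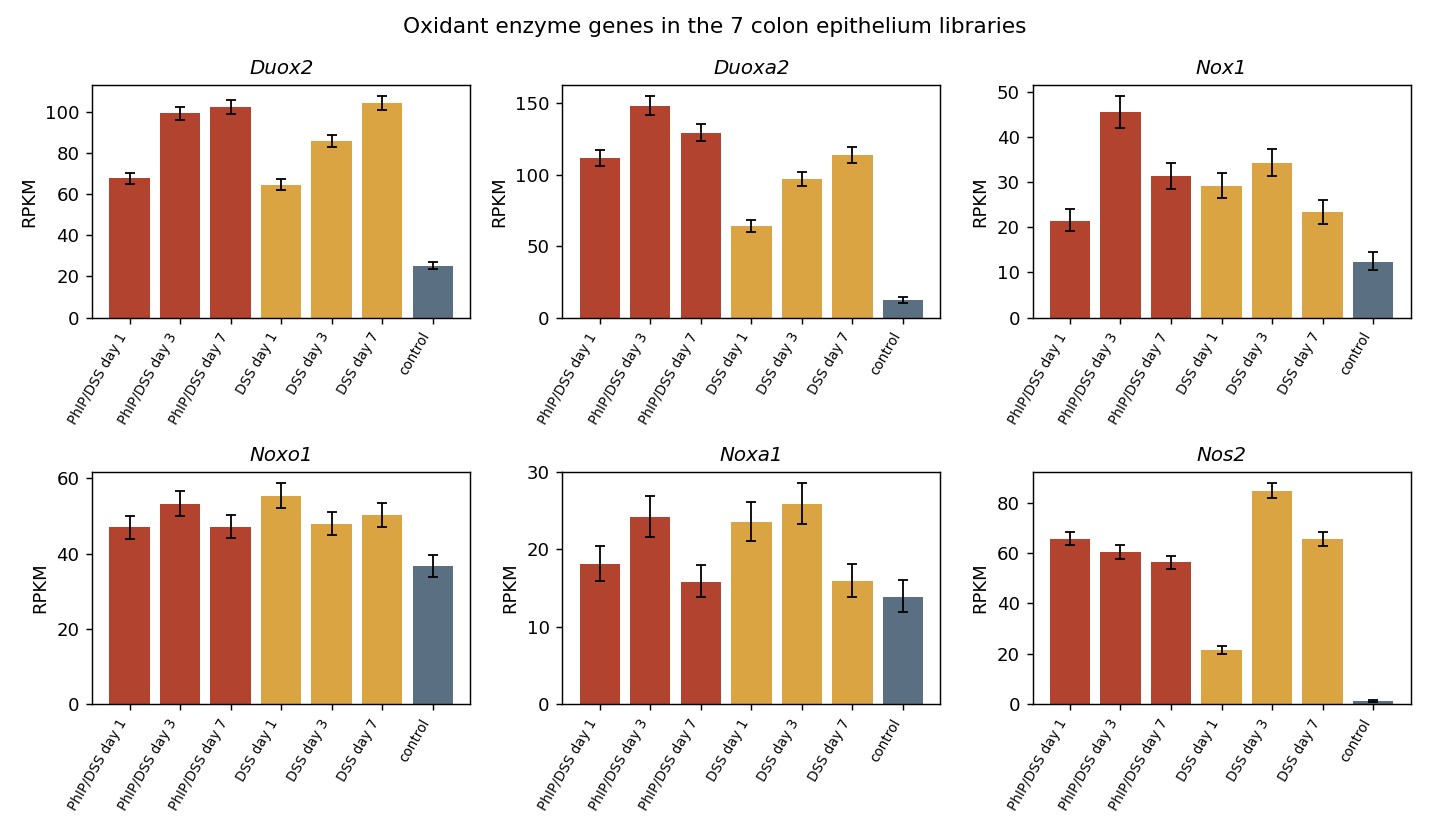
Bars give the RPKM of each of the 6 genes in each of the 7 libraries, and error bars the 95% Poisson counting interval. Every treated bar is above the control bar, with Nos2 at 21.4 to 84.8 RPKM in treated libraries against 1.41 RPKM in the control, and Noxo1 at 47.0 to 55.5 RPKM against 36.7 RPKM.

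Duox2, the oxidase, stood at 67.6, 99.3 and 102 RPKM in PhIP/DSS on days 1, 3 and 7, at 64.6, 85.6 and 104 RPKM in DSS, and at 25.2 RPKM in the control. It was lowest on day 1 in both treated arms, and the highest treated library exceeded the lowest by 1.615 times, so the treated libraries were close together and all far from the control. The ratios to the control library, from TMM-scaled reads, were 2.66 (2.47 to 2.88), 3.99 (3.71 to 4.30) and 4.10 (3.81 to 4.41) in PhIP/DSS. In DSS they were 2.56 (2.37 to 2.77), 3.48 (3.23 to 3.75) and 4.27 (3.96 to 4.60). Within PhIP/DSS the day 3 level was 1.50 times that of day 1 (1.425 to 1.58), and day 7 over day 3 was 1.03 (0.981 to 1.07). Within DSS the day 3 level was 1.36 times that of day 1 (1.29 to 1.43), and day 7 was 1.23 times day 3 (1.17 to 1.28). The DSS series was thus higher at each later day, while in PhIP/DSS the interval between days 3 and 7 included 1.

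Duoxa2, whose protein brings DUOX2 to the cell surface, stood at 111, 148.3 and 129 RPKM in PhIP/DSS on days 1, 3 and 7, at 64.0, 96.8 and 114 RPKM in DSS, and at 12.05 RPKM (147 reads) in the control. The PhIP/DSS level was the higher one on each day, although PhIP/DSS day 1 and DSS day 7 had overlapping counting intervals. The ratios to the control were 9.17 (7.74 to 10.9), 12.45 (10.5 to 14.8) and 10.8 (9.15 to 12.9) in PhIP/DSS, and 5.29 (4.44 to 6.35), 8.21 (6.92 to 9.805) and 9.70 (8.19 to 11.6) in DSS. The maturation factor therefore stood further above the control than the oxidase did in each treated library.

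The ratio of Duoxa2 RPKM to Duox2 RPKM was 1.65 (1.55 to 1.76), 1.49 (1.415 to 1.58) and 1.27 (1.195 to 1.34) in PhIP/DSS on days 1, 3 and 7. In DSS it was 0.991 (0.917 to 1.07), 1.13 (1.06 to 1.20) and 1.09 (1.03 to 1.16), and in the control it was 0.479 (0.399 to 0.571). The control had less maturation factor than oxidase message per length. The PhIP/DSS ratios lay above all DSS ratios, and the nearest of them, PhIP/DSS day 7 and DSS day 3, had overlapping intervals.

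**Figure D2:**
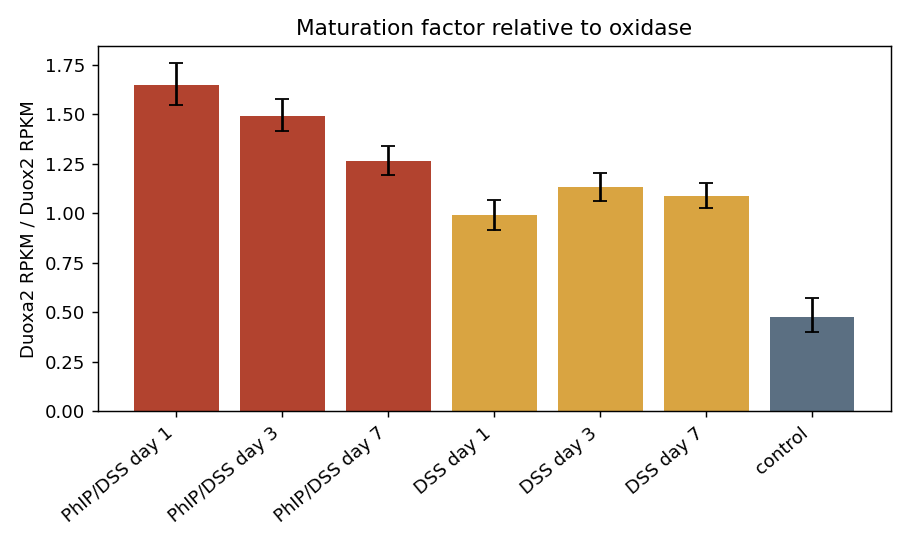
Bars give the RPKM of Duoxa2 divided by that of Duox2 in each library, and error bars the exact 95% counting interval. The ratios were 1.27 to 1.65 in PhIP/DSS, 0.991 to 1.13 in DSS and 0.479 in the control.

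Nox1, the superoxide-producing oxidase, stood at 21.5, 45.5 and 31.3 RPKM in PhIP/DSS on days 1, 3 and 7, at 29.2, 34.3 and 23.3 RPKM in DSS, and at 12.4 RPKM (161 reads) in the control. Day 3 was the highest day in both treated arms. The ratios to the control were 1.715 (1.41 to 2.09), 3.71 (3.12 to 4.44) and 2.54 (2.12 to 3.06) in PhIP/DSS, and 2.34 (1.95 to 2.83), 2.83 (2.36 to 3.396) and 1.935 (1.60 to 2.35) in DSS. The widest step between days was in PhIP/DSS, where day 3 was 2.16 times day 1 (1.89 to 2.485) and day 7 was 0.685 times day 3 (0.606 to 0.774).

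Noxo1, the organizer that holds the NOX1 complex at the membrane, stood at 47.0, 53.3 and 47.2 RPKM in PhIP/DSS on days 1, 3 and 7, at 55.5, 47.9 and 50.3 RPKM in DSS, and at 36.7 RPKM in the control. Its treated libraries differed least of the 6 genes, with the highest 1.18 times the lowest. The ratios to the control were 1.27 (1.145 to 1.41), 1.47 (1.33 to 1.625) and 1.30 (1.17 to 1.44) in PhIP/DSS, and 1.51 (1.36 to 1.66), 1.33 (1.205 to 1.48) and 1.41 (1.27 to 1.56) in DSS. No interval included 1.

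Noxa1, the activator subunit, stood at 18.1, 24.1 and 15.8 RPKM in PhIP/DSS on days 1, 3 and 7, at 23.6, 25.9 and 15.9 RPKM in DSS, and at 13.8 RPKM (177 reads) in the control. Day 3 was highest and day 7 lowest in both treated arms. The ratios to the control were 1.30 (1.07 to 1.58), 1.77 (1.47 to 2.13) and 1.15 (0.942 to 1.41) in PhIP/DSS, and 1.70 (1.415 to 2.05), 1.92 (1.60 to 2.30) and 1.18 (0.965 to 1.45) in DSS. Both day 7 intervals included 1. The day 7 level was 0.652 times that of day 3 in PhIP/DSS (0.548 to 0.775) and 0.617 times in DSS (0.520 to 0.7305).

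Nos2, the inducible nitric oxide synthase, stood at 65.7, 60.4 and 56.4 RPKM in PhIP/DSS on days 1, 3 and 7, at 21.4, 84.8 and 65.5 RPKM in DSS, and at 1.41 RPKM (43 reads) in the control. It had the lowest control level and the widest treated range of the 6 genes, with the highest treated library 3.95 times the lowest. The ratios to the control were 46.35 (34.3 to 64.2), 43.45 (32.1 to 60.2) and 40.4 (29.9 to 56.0) in PhIP/DSS. In DSS they were 15.2 (11.2 to 21.2), 61.7 (45.7 to 85.4) and 47.95 (35.5 to 66.45). In PhIP/DSS the level was highest on day 1, whereas in DSS day 3 was 4.06 times day 1 (3.74 to 4.40). PhIP/DSS day 3, with 60.4 RPKM of Nos2, had the lowest treated sum of neutrophil markers, 32.3 RPKM, and DSS day 1, with 21.4 RPKM of Nos2, had 36.5 RPKM. In bulk RNA, fewer cells of a type and less RNA per cell cannot be told apart, and the part of these cell types in the Nos2 levels was not tested.

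**Figure D3:**
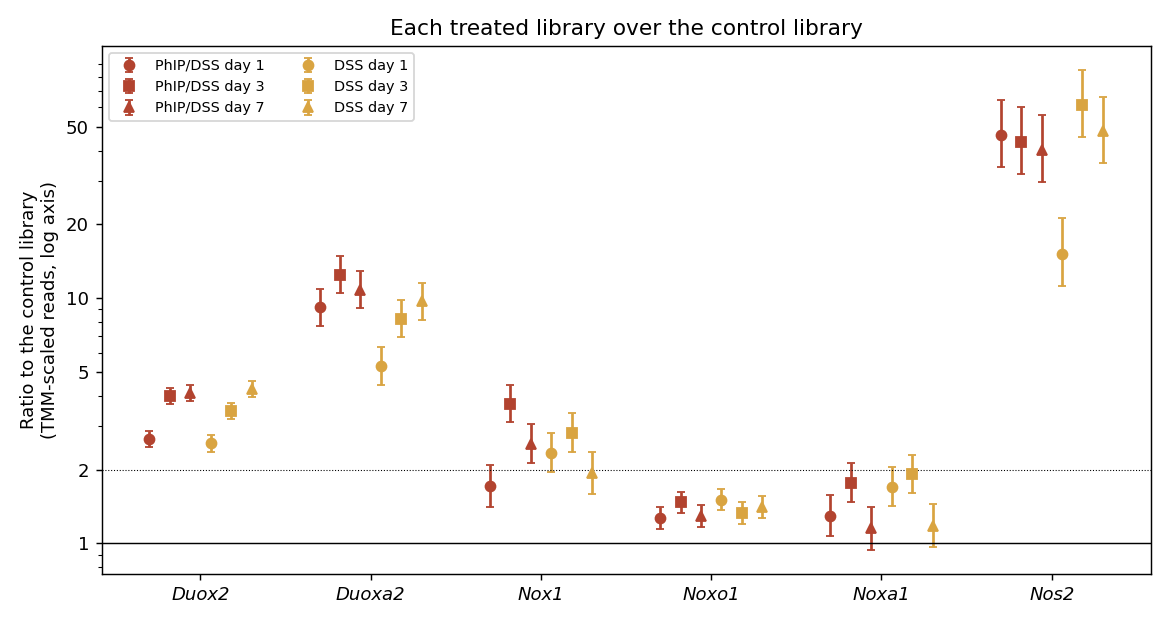
Points give the ratio of each treated library to the control library for each gene on a log axis, from TMM-scaled reads, with exact 95% counting intervals; the solid line marks a ratio of 1 and the dotted line a ratio of 2. Nos2 spans 15.2 to 61.7 and Duoxa2 5.29 to 12.45, whereas the points of Noxo1 and Noxa1 stay below 2. Intervals of Noxa1 pass 2 in DSS days 1 and 3 and in PhIP/DSS day 3.

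Levels per length placed Noxo1 first in the control at 36.7 RPKM, followed by Duox2 at 25.2, Noxa1 at 13.8, Nox1 at 12.4, Duoxa2 at 12.05 and Nos2 at 1.41 RPKM. The counting intervals of Noxa1 (11.85 to 15.99), Nox1 (10.6 to 14.5) and Duoxa2 (10.2 to 14.2) overlapped, so the order of these neighbours is not set. In the treated libraries Duoxa2 was first in 5 of 6 and Duox2 in DSS day 1, where the intervals of these genes overlapped. Nos2 was the third in 5 of 6 treated libraries and the last in DSS day 1. Other neighbours with overlapping intervals were Duox2 and Nos2 in PhIP/DSS day 1 and in DSS day 3, Nox1 and Noxa1 in PhIP/DSS day 1, and Noxa1 and Nos2 in DSS day 1.

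Against the control, both treated arms together, the fitted log2 fold changes of Duox2 were 1.38 (SE 0.13), 1.90 (SE 0.14) and 2.07 (SE 0.14) on days 1, 3 and 7. Those of Duoxa2 were 2.81 (SE 0.25), 3.34 (SE 0.26) and 3.37 (SE 0.26). The fit was edgeR's quasi-likelihood test with Benjamini-Hochberg adjustment over 12061 genes, in which the spread comes only from how the PhIP/DSS to DSS difference varies over the days. It has 2 residual degrees of freedom, and all day comparisons share the single control library. Adjusted p-values of Duox2 were 0.071, 0.0683 and 0.0593 on days 1, 3 and 7, and those of Duoxa2 were 0.071, 0.0683 and 0.0661. By p-value Duox2 ranked 31, 8 and 5 among the genes tested, and Duoxa2 ranked 23, 12 and 13.

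Nos2 had the largest fitted log2 fold changes of the 6 genes, 4.88 (SE 0.925), 5.74 (SE 0.95) and 5.48 (SE 0.94), with adjusted p-values of 0.0712, 0.138 and 0.123 (edgeR). Its day 1 value was 5.72 from PhIP/DSS day 1 with DSS day 1 left out, and 3.73 with PhIP/DSS day 1 left out. Its day 3 value was 5.10 with DSS day 3 left out and 6.28 with PhIP/DSS day 3 left out. Nox1 had 1.03 (SE 0.32), 1.70 (SE 0.33) and 1.16 (SE 0.32), with adjusted p-values of 0.11, 0.154 and 0.209. The day 1 value of Nox1 was 0.58 with DSS day 1 left out and 1.42 with PhIP/DSS day 1 left out. Noxo1 had 0.47, 0.49 and 0.43 (SE 0.16 each), with adjusted p-values of 0.124, 0.223 and 0.278. Noxa1 had 0.575, 0.88 and 0.225 (SE 0.17 each), with adjusted p-values of 0.103, 0.155 and 0.519. The 3 day comparisons thus called 0 of the 6 genes at an adjusted p of 0.05 with edgeR, where 0% of all genes were called.

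At an unadjusted p of 0.05 edgeR's quasi-likelihood test gave 6, 6 and 5 of the 6 genes as higher on days 1, 3 and 7, the exception being Noxa1 on day 7. The share of all genes tested that met this was 16.4%, 10.3% and 9.22% on the same days. In either direction, 3932, 2291 and 2076 of the 12061 genes tested had such a p. DESeq2 called Duox2, Duoxa2 and Nos2 on all 3 days and also Nox1 on day 3, that is 3, 4 and 3 genes, where it called 1258, 432 and 482 genes in all, or 10.4%, 3.58% and 4% of those tested. With edgeR, leaving out DSS day 1 gave 4, 6 and 4 of the 6 genes on days 1, 3 and 7, where 35.5%, 17.8% and 15.7% of all genes were called. Leaving out PhIP/DSS day 1 gave 6, 6 and 4 of the 6, where 12.4%, 18.8% and 16.7% of all genes were called. Leaving out any other treated library gave 0, and without the control no such comparison exists. The median fitted log2 fold change of the 6 genes was 1.21, 1.80 and 1.61, beside 0.01, 0.01 and -0.01 over all genes tested.

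In single libraries, 3, 4 and 4 of the 6 genes were at least 2-fold above the control in PhIP/DSS on days 1, 3 and 7, where 11.9%, 5.52% and 7.64% of all genes were. In DSS 4, 4 and 3 were, where 6.41%, 8.1% and 8.39% of all genes were. The counts differed through Nox1, which passed 2-fold in PhIP/DSS on days 3 and 7 and in DSS on days 1 and 3. None of the 6 genes was 2-fold below the control in any library.

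Day 7 against day 1 had its lowest p of the 6 genes at Duox2. Its fitted log2 difference was 0.68 (SE 0.10, adjusted p = 0.0934, edgeR), and the day 7 library was the higher one in both treated arms. Duoxa2 was at 0.56 (SE 0.17, adjusted p = 0.139), and Nos2 at 0.60 with an SE nearly as large (0.55, adjusted p = 0.543), which became -0.26 without DSS day 1. Nox1 was at 0.13 (SE 0.245), or -0.28 without PhIP/DSS day 1 and -0.08 without PhIP/DSS day 7. Noxo1 was at -0.04 (SE 0.125), or 0.096 without DSS day 1, and Noxa1 at -0.35 (SE 0.135, adjusted p = 0.192). This comparison called 0 of 6 genes and 0% of all genes with edgeR, which at an unadjusted p of 0.05 gave Duox2 and Duoxa2, 2 of 6, as higher, against 12.3% of all genes, whereas DESeq2 called Duox2 alone of the 6, beside 5.83% of all genes. Without DSS day 1 edgeR called 2 of the 6 and 24.8% of all genes, and without PhIP/DSS day 1 it called 3 of the 6 and 6.52% of all genes.

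**Figure D4:**
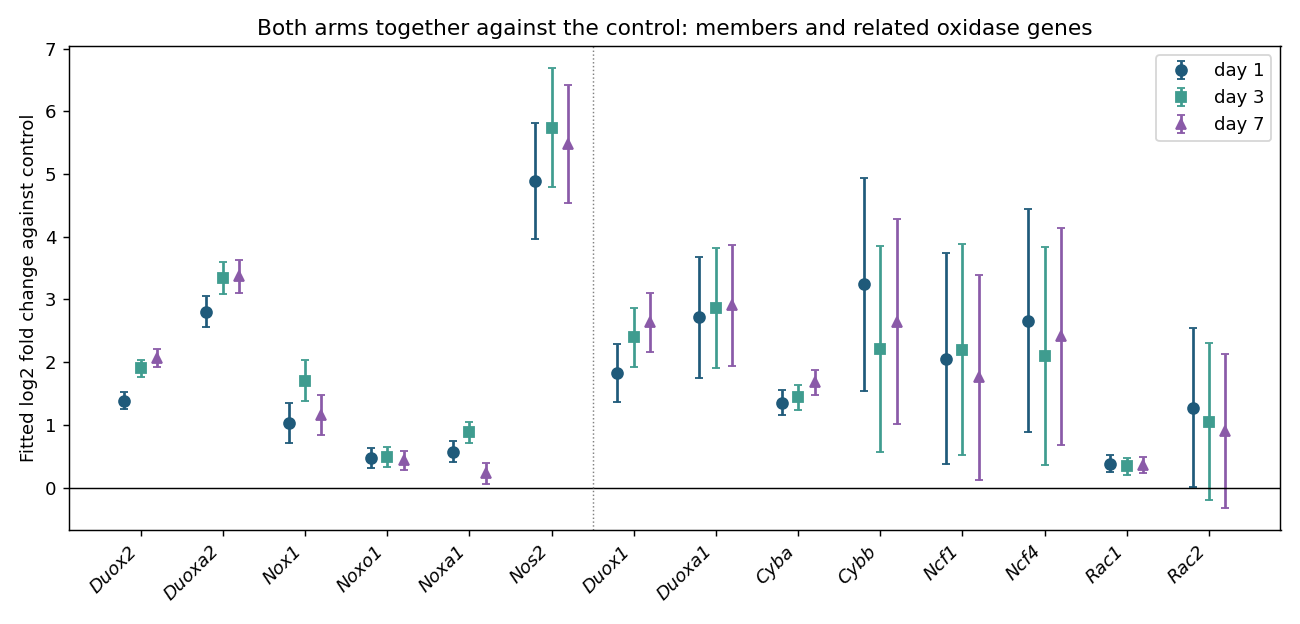
Points give the fitted log2 fold change against the control for days 1, 3 and 7, with both treated arms together, for the 6 genes (left of the dotted line) and 8 related oxidase genes (right of it); bars are standard errors. Duox2, Duoxa2, Noxo1, Noxa1, Cyba and Rac1 have narrow bars, with SE values of 0.13 to 0.26, while Cybb, Ncf1, Ncf4 and Rac2 have SE values above 1.

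Between PhIP/DSS and DSS the lowest p of the 6 genes was that of Duoxa2. Its level in PhIP/DSS was 1.73 times that in DSS on day 1 (1.59 to 1.885), 1.52 times on day 3 (1.41 to 1.63) and 1.12 times on day 7 (1.04 to 1.20). The fitted log2 difference was 0.52 (SE 0.14, unadjusted p = 0.0159, adjusted p = 0.998, edgeR), higher in PhIP/DSS on 3 of 3 days. Duox2 was at 1.04 (0.986 to 1.10), 1.15 (1.095 to 1.20) and 0.960 (0.918 to 1.004) on days 1, 3 and 7, with a fitted log2 difference of 0.07 (SE 0.08, adjusted p = 0.998). The intervals of Duoxa2 exclude 1 on each day, whereas those of Duox2 exclude it on day 3 alone.

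Nos2 in PhIP/DSS over DSS was 3.05 on day 1 (2.805 to 3.32), 0.705 on day 3 (0.666 to 0.746) and 0.8425 on day 7 (0.792 to 0.897). The direction thus differed between day 1 and the later days, and the fitted log2 difference was 0.26 (SE 0.45, adjusted p = 0.998), or -0.38 without either day 1 library. The summed neutrophil markers had the same directions, at 22.6, 0.0276 and 0.152 on days 1, 3 and 7, as did macrophage and monocyte markers, at 4.58, 0.357 and 0.766, and fibroblast markers, at 4.50, 0.4075 and 0.757. The summed epithelial markers were at 0.973, 1.09 and 0.969. Single markers did not all follow the sums. C1qa stood at 17.65, 8.34 and 18.6 RPKM in PhIP/DSS on days 1, 3 and 7 and at 7.41, 7.89 and 10.5 RPKM in DSS. Fitted over the days, 6 of 12 macrophage and monocyte markers, 0 of 9 neutrophil markers and 5 of 6 fibroblast markers were higher in PhIP/DSS. The part of these cell types in the difference of Nos2 was not tested.

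Nox1 in PhIP/DSS over DSS was 0.732 on day 1 (0.6305 to 0.849), 1.31 on day 3 (1.17 to 1.48) and 1.31 on day 7 (1.14 to 1.52), so it was lower on day 1 and higher on the later days. Its partner Noxo1 was at 0.843 (0.771 to 0.922), 1.10 (1.006 to 1.204) and 0.920 (0.838 to 1.01). Noxa1 was at 0.763 (0.647 to 0.900), 0.923 (0.795 to 1.07) and 0.976 (0.806 to 1.18). Nox1, Noxo1 and Noxa1 were therefore all lower in PhIP/DSS than in DSS on day 1, when Nos2 and Duoxa2 were higher. The summed epithelial markers were at 0.973 on that day, and single ones differed in direction. Vil1 stood at 294.2 RPKM in PhIP/DSS and 326.7 RPKM in DSS, and Krt20 at 1008 and 941.2 RPKM. Genes of the other NOX1 partners were not lower on that day. Cyba, which encodes p22phox, was at 1.26 (1.13 to 1.40), and Rac1 stood at 335.5 RPKM in PhIP/DSS and 297.6 RPKM in DSS. The phagocyte oxidase also uses p22phox. On that day the summed neutrophil markers were at 22.6 and the macrophage and monocyte markers at 4.58 times DSS. The part of these cells in the Cyba level was not tested.

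The fitted log2 differences between PhIP/DSS and DSS were 0.12 (SE 0.20) for Nox1, -0.08 (SE 0.10) for Noxo1 and -0.18 (SE 0.11) for Noxa1, each with an adjusted p of 0.998. Without DSS day 3 the value for Duox2 was 0.00. Without any 1 of the day 3 or day 7 treated libraries that for Nox1 was -0.02 to -0.03, and without either day 1 library that for Noxo1 was 0.01. None of the 6 genes and 0% of all genes were called by edgeR. At an unadjusted p of 0.05 edgeR gave Duoxa2, 1 of 6, as higher, against 2.01% of all genes. DESeq2 called 0 of the 6 and 18 genes in all, or 0.149%.

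**Figure D5:**
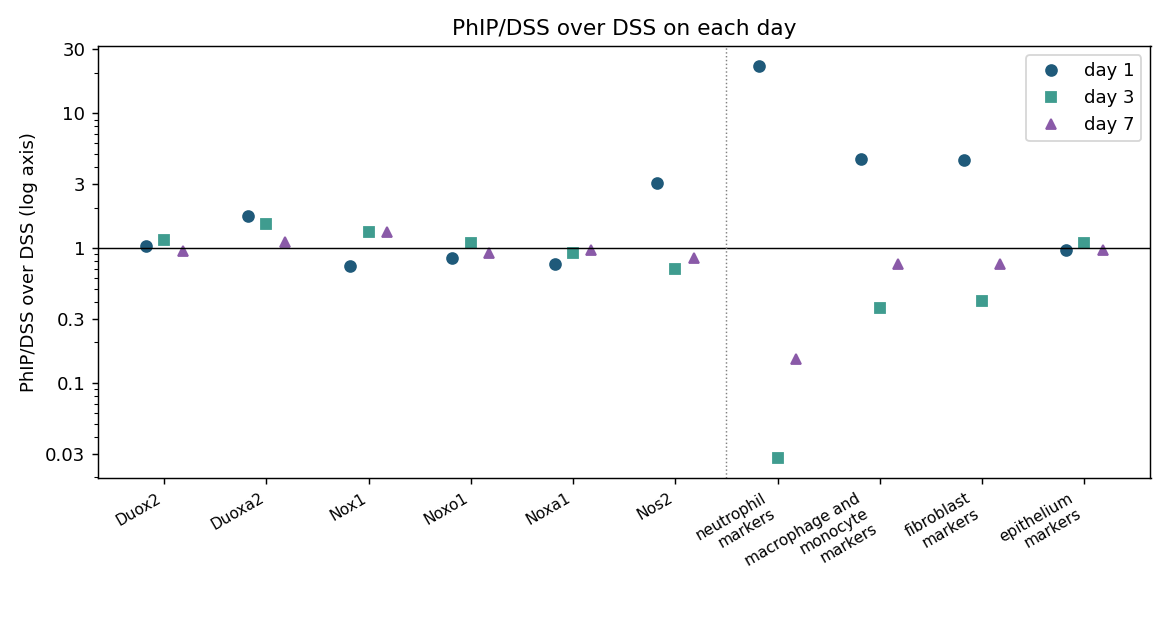
Points give PhIP/DSS over DSS on days 1, 3 and 7 on a log axis, for TMM-scaled reads of each gene (left of the dotted line) and for the summed RPKM of cell type markers (right of it); the solid line marks 1. Duoxa2 lies above 1 on each day, at 1.12 to 1.73, Nos2 goes with the non-epithelial marker sums in direction, and the epithelial sum stays at 0.969 to 1.09.

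Among the partners and relatives of these oxidases, 8 of the 10 genes on the list were tested, and all 8 had fitted values above the control on days 1, 3 and 7. With edgeR 0 of 8 were called, and 4, 3 and 4 of 8 had an unadjusted p of 0.05 or less in the higher direction. The share of all genes tested that did was 16.4%, 10.3% and 9.22%. The median log2 fold changes of the list were 1.94, 2.15 and 2.08. Cyba, which encodes the p22phox subunit that NOX1 and the phagocyte oxidase share, stood at 115, 105.5 and 121 RPKM in PhIP/DSS on days 1, 3 and 7, at 91.0, 108.5 and 131 RPKM in DSS and at 40.1 RPKM in the control. Its fitted log2 fold changes were 1.35, 1.44 and 1.68 (SE 0.20 each, adjusted p = 0.071, 0.132 and 0.0912). Rac1, the GTPase that activates NOX1, had the lowest fold of the list on each day, at 298.9 to 335.5 RPKM in PhIP/DSS, 297.6 to 309 RPKM in DSS and 242 RPKM in the control.

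Duox1 and Duoxa1, the neighbouring dual oxidase pair, were far lower than Duox2 and Duoxa2. Duox1 stood at 1.18, 2.43 and 2.215 RPKM in PhIP/DSS, at 1.48, 1.47 and 2.35 RPKM in DSS and at 0.372 RPKM (15 reads) in the control. It was above the control in each treated library, with ratios of 3.15 to 6.63 in PhIP/DSS and 3.97 to 6.50 in DSS. Duoxa1 stood at 1.01, 1.02 and 1.02 RPKM in PhIP/DSS and at 0.3785, 0.452 and 0.480 RPKM in DSS, with 1 read in the control. Like Duoxa2, it was the higher in PhIP/DSS on each day, at 2.65 (0.885 to 9.48), 2.235 (0.792 to 7.17) and 2.085 (0.7395 to 6.69) times DSS, and each of these intervals included 1. Duox1 and Duoxa1 overlap by 754 bases, so reads there are uncertain.

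The phagocyte oxidase genes followed another order of libraries. Cybb, the catalytic subunit of the phagocyte oxidase, stood at 12.8, 1.35 and 3.78 RPKM in PhIP/DSS on days 1, 3 and 7, at 2.05, 6.49 and 6.525 RPKM in DSS and at 0.824 RPKM in the control. Ncf1, the phagocyte counterpart of Noxo1, stood at 11.5, 2.01 and 4.99 RPKM in PhIP/DSS, at 1.98, 14.7 and 6.59 RPKM in DSS and at 1.73 RPKM in the control. PhIP/DSS over DSS was 6.23, 0.2055 and 0.568 for Cybb on days 1, 3 and 7, and 5.80, 0.135 and 0.741 for Ncf1. These are the directions of Nos2, with wider differences between days. Nox4 had no read in the control and at most 0.0692 RPKM elsewhere.

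Of the 12 genes of nitric oxide and arginine handling, 9 were tested, of which 7, 6 and 7 had fitted values above the control on days 1, 3 and 7, and edgeR called 0. At an unadjusted p of 0.05 (edgeR), 4, 3 and 4 were higher, beside 16.4%, 10.3% and 9.22% of all genes tested, and 0, 0 and 1 lower. The median log2 fold changes of the list were 1.12, 0.32 and 0.76. Gch1, the first enzyme in making the synthase cofactor tetrahydrobiopterin, stood at 24.5, 22.3 and 24.85 RPKM in PhIP/DSS, at 19.3, 22.1 and 25.2 RPKM in DSS and at 5.85 RPKM in the control. Its log2 fold changes were 1.89, 1.95 and 2.12 (SE 0.19 each), with adjusted p-values of 0.071, 0.0979 and 0.0661. Ddah1, which breaks down methylated arginines that inhibit the synthases, stood at 73.5, 56.4 and 37.0 RPKM in PhIP/DSS, at 71.2, 65.3 and 53.6 RPKM in DSS and at 15.95 RPKM in the control. Both were above the control in all 6 treated libraries, and Ddah1 was lower at each later day in both arms.

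Arg1, an arginase that competes for the substrate of NOS2, had the highest fitted fold of that list on each day, with wide standard errors. Its log2 fold changes were 5.045 (SE 2.23), 5.48 (SE 2.20) and 6.01 (SE 2.21) on days 1, 3 and 7. The adjusted p-values were 0.193, 0.277 and 0.281 (edgeR). It stood at 18.02, 7.33 and 11.7 RPKM in PhIP/DSS, at 2.77, 27.45 and 38.1 RPKM in DSS and at 0.3505 RPKM (4 reads) in the control. PhIP/DSS over DSS was 6.47, 0.264 and 0.3003 on days 1, 3 and 7, higher on day 1 and lower later, as for Nos2. The lowest of the list were Ddah2 on day 1, at -0.205 (SE 0.53), and Slc7a1, an arginine transporter, on days 3 and 7, at -0.22 (SE 0.205) and -0.61 (SE 0.20). Nos1 and Nos3 did not pass the filter on low values, and reached at most 0.0297 and 0.255 RPKM.

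Among 16 tested genes of peroxidases and peroxide or superoxide removal, 13, 12 and 11 had fitted values above the control on days 1, 3 and 7, and edgeR called 0. At an unadjusted p of 0.05 (edgeR), 8, 7 and 5 were higher, beside 16.4%, 10.3% and 9.22% of all genes tested, and 0, 2 and 2 lower. The median log2 fold changes of the list were 0.59, 0.45 and 0.27. Gpx3, the secreted glutathione peroxidase, had the highest fitted fold of the list on each day and stood at 53.3, 13.8 and 17.03 RPKM in PhIP/DSS, at 14.7, 18.4 and 23.55 RPKM in DSS and at 4.21 RPKM in the control. It was highest in PhIP/DSS day 1, and its fitted log2 fold changes were 2.93 (SE 0.92), 1.98 (SE 0.89) and 2.32 (SE 0.90). Gpx2, the gut glutathione peroxidase, stood at 1278, 667 and 444 RPKM in PhIP/DSS, at 887, 657 and 491 RPKM in DSS and at 193 RPKM in the control, highest on day 1 in both arms. Lpo, a peroxidase that uses hydrogen peroxide, was the lowest of the list on each day and stood at 173, 239 and 172 RPKM in PhIP/DSS, at 263, 177 and 142 RPKM in DSS and at 387 RPKM in the control. On day 7 against day 1, 1 of the 16 was fitted higher and 15 lower, with a median log2 difference of -0.354 beside 0.002 over all genes tested. EdgeR called 0 of them. At an unadjusted p of 0.05 (edgeR) 1 was higher and 5 lower, where 3172 of all 12061 genes tested had such a p in either direction. Of the 6 oxidant genes, 4 were fitted higher in that comparison, and Noxo1 and Noxa1 lower.

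The list of inducing cytokines, receptors and transcription factors had 18 of 23 genes tested, of which 14, 14 and 16 had fitted values above the control, and edgeR called 0. At an unadjusted p of 0.05 (edgeR), 3, 5 and 8 were higher, beside 16.4%, 10.3% and 9.22% of all genes tested, and 1, 0 and 0 lower. The day 1 count was thus near the share over all genes. The median log2 fold changes of the list were 0.26, 0.36 and 0.46. Il17a, Il17f, Il22 and Ifng had 0 reads in the control, did not pass the filter and reached at most 0.875, 0.994, 0.323 and 1.36 RPKM. Il1b, the highest fold of the list on each day, stood at 263.5, 7.51 and 36.1 RPKM in PhIP/DSS, at 17.7, 127 and 101 RPKM in DSS and at 1.28 RPKM (13 reads) in the control. Its fitted log2 fold changes were 7.18 (SE 3.335), 5.365 (SE 3.19) and 5.61 (SE 3.15) on days 1, 3 and 7. The adjusted p-values were 0.209, 0.402 and 0.417 (edgeR). Il22ra1, the epithelial receptor chain for IL-22, had the lowest fold of the list on day 1 and stood at 22.9, 37.5 and 44.6 RPKM in PhIP/DSS, at 26.9, 35.1 and 48.1 RPKM in DSS and at 41.01 RPKM in the control. It was below the control on days 1 and 3 and above it on day 7 in both arms. Il17rc, an IL-17 receptor chain with the lowest fold on days 3 and 7, stood at 55.6 to 70.5 RPKM in PhIP/DSS, 55.2 to 60.2 RPKM in DSS and 74.2 RPKM in the control. Nfkbiz, a nuclear regulator of NF-kB target genes, stood at 37.0, 56.8 and 47.5 RPKM in PhIP/DSS, at 25.5, 41.0 and 44.8 RPKM in DSS and at 12.1 RPKM in the control. It was the higher in PhIP/DSS on each day, as Duoxa2 was, with a fitted log2 difference of 0.345 (SE 0.12, unadjusted p = 0.0349, edgeR).

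Across the 7 libraries the log2 levels of Duoxa2 and Nos2 had a Pearson r of 0.974, those of Duox2 and Duoxa2 of 0.964 and those of Duox2 and Nos2 of 0.941. Without the control library these were 0.723, 0.748 and 0.561, so the single control carries part of each. Nox1 and Noxo1 had an r of 0.825 with the control and 0.415 without it, and Nox1 and Noxa1 had 0.778 and 0.637. Noxo1 and Nos2 had 0.757 with it and -0.614 without it. High values were common among the genes tested. By r with the control, Duoxa2 ranked 23 among all other genes for Duox2, and Nos2 ranked 15 for Duoxa2. For Nox1, Noxo1 ranked 111 and Noxa1 203. All these points share 1 control and the depth scaling of each library, and the values describe these libraries only.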

How the data were processed

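Each deposited table holds, per the file headers, a count of unique reads for every gene, the gene's length (an other, non-expression value of the authors) and the authors' RPKM, which equalled reads over length and library total to within a relative 5.1e-15. The submitters' processing notes name genome build mm10 and FastQC. Aligner, counter, annotation and strandedness are not given in these sources. A gene missing from a table was entered as 0. RefSeq tables (GRCm38.p6) supplied positions, promoter sequences and symbols, the last for 17983 of 18036 genes.

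The test was edgeR 4.0.16 under R 4.3.3: TMM scaling, quasi-likelihood, two-sided, Benjamini-Hochberg adjustment over the 12061 genes that reached 1 RPKM in 2 libraries or more, calls at an adjusted p of 0.05. Its terms were control, day 1, day 3 and day 7 plus 1 for PhIP, and the common biological coefficient of variation was 23.7%. Mice within a pool cannot be separated, and no condition had a second pool. The p-values therefore rest on how the PhIP/DSS to DSS difference varied over the days, not on replicate pools. The fit was run on counts simulated with no difference between PhIP/DSS and DSS, so that run does not test the spread used here. Alternatives were DESeq2 1.42.0, limma 3.58.1 on log2(RPKM + 1) and log2(RPKM + 0.1), library totals, no filter, no PhIP term, no day block and leaving out each library. Log2 CPM used a prior count of 1.

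The 6 genes and the lists (partners, nitric oxide and arginine, peroxide removal, inducing signals, cell type markers) were chosen with earlier results of these data known. 1 gene of the partner list is not reported here. Named from the lists were partners of the 6 genes and the highest and lowest fold of a list. Gch1, Ddah1, Gpx2, Nfkbiz and the untested cytokines were named after their values were seen. For each of the 6 genes the 5 genes with the highest Pearson r of log2 CPM over the libraries were taken.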

Additional observations from a re-analysis of the deposited data

How the results depend on the processing

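Of 372 fold changes of the 6 genes under the alternatives, 306 kept direction and side of the threshold, 53 kept direction and passed it and 13 turned round. The number of the 6 genes called, 0 with edgeR in each comparison, was 3, 4, 3 and 1 with DESeq2 for days 1, 3 and 7 against control and for day 7 against day 1. It was 3, 1 and 1 without a PhIP term on days 1, 3 and 7, and 2 with no filter on day 7 (Duox2 and Duoxa2). Leaving out 1 library gave 0 to 6 on day 1, 0 to 6 on day 3, 0 to 4 on day 7 and 0 to 3 for day 7 against day 1; every count above 0 came without DSS day 1 (4, 6, 4 and 2) or without PhIP/DSS day 1 (6, 6, 4 and 3). The remaining day 1 library is then assumed to vary like the others. Over the whole table edgeR called 0 in each comparison. DESeq2 called 1258, 432, 482, 703 and 18 for days 1, 3 and 7 against control, for day 7 against day 1, and between the treated arms. No filter gave 6, 3 and 29 on days 1, 3 and 7, no PhIP term 1305, 27, 59 and 57 in the first 4 comparisons, and limma on log2(RPKM + 0.1) gave 3 for day 7 against day 1. Without DSS day 1 the 5 counts were 4280, 2142, 1896, 2986 and 282, and without PhIP/DSS day 1 they were 1495, 2271, 2010, 786 and 324. Leaving out 1 library also turned directions: for day 7 against day 1, the range was -0.16 to 0.096 for Noxo1, -0.26 to 1.72 for Nos2 and -0.28 to 0.567 for Nox1. For PhIP/DSS against DSS, the range was -0.18 to 0.009 for Noxo1, -0.38 to 0.68 for Nos2, 0.00 to 0.13 for Duox2 and -0.028 to 0.39 for Nox1. The cause was not tested. Counts of genes at least 2-fold above the control did not move under library totals or another prior count. Without the day block Duoxa2 in PhIP/DSS against DSS was 0.48 (adjusted p = 1.00, edgeR). Precision is limited by 1 pool per condition: 43 control reads of Nos2, 1 of Duoxa1 and 4 of Arg1 leave wide ratios.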

Other observations

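The genes whose log2 levels ran most like each oxidant gene over the 7 libraries, each by Pearson r and with 1 shared control, differed between the 6 genes. For Duox2 they were Gp1bb (0.985), Bpgm (0.984), Prdm1 (0.982), its paralog Duox1 (0.981) and Steap4 (0.977). Steap4, a metalloreductase, stood at 17.5, 23.3 and 36.05 RPKM in PhIP/DSS on days 1, 3 and 7, at 8.39, 15.9 and 43.5 RPKM in DSS and at 1.04 RPKM in the control. Bpgm also led the list of Duoxa2 (0.988), followed by Trim40 (0.986), Cd38 (0.985), 2310069B03Rik (0.983) and Rnf24 (0.980).

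For Nox1 the list was Lysmd4 (0.982), Tnfrsf8 (0.961), Pacrgl (0.959), Trf (0.954) and Spry4 (0.952), and for Noxo1 it was Xpnpep1 (0.978), Vsig1 (0.976), Spryd7 (0.971), Ndufs3 (0.970) and Washc3 (0.967). Noxa1 ran with Agr2 (0.986), a disulfide isomerase needed for mucin production in goblet cells, and with Ddost (0.959), Pycr1 (0.956), Arcn1 (0.952) and Copb2 (0.943). Agr2 stood at 1299, 1541 and 1059 RPKM in PhIP/DSS, at 1496, 1565 and 1082 RPKM in DSS and at 943 RPKM in the control, with day 7 the lowest treated day in both arms, as for Noxa1. For Nos2 the list was Rnf183 (0.994), Prss16 (0.991), Ceacam12 (0.988), Clca4a (0.987) and Ms4a8a (0.987). Rnf183, an E3 ubiquitin ligase, stood at 7.18, 5.41 and 4.83 RPKM in PhIP/DSS, at 3.02, 6.81 and 6.99 RPKM in DSS and at 0.465 RPKM in the control.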
